A study of Mus musculus with 7 samples.

Results

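The NRF2 antioxidant response genes Txnrd1, Srxn1, Nqo1, Hmox1, Gclc and Gclm were followed with Nfe2l2, which encodes the factor NRF2 itself, and Sqstm1, which encodes the autophagy receptor p62, in small RNA libraries of mouse heart mitochondria. These 8 genes were taken by symbol from the 49584 features listed, each symbol matching a single feature. They had been chosen by what is known of this response and by the knockout and control counts of the same libraries, so the differences given for them are descriptions and carry no test. The libraries came from 4 mice with loxP-flanked Tefm that also expressed cre under the muscle creatine kinase promoter (genotype Tefm -/-, knockouts 1 to 4) and from 3 mice with loxP-flanked Tefm and no cre (genotype Tefm +/+, controls 1 to 3). Tefm encodes the elongation factor of mitochondrial transcription. That promoter is active in cardiomyocytes and skeletal muscle, so other cells of the heart keep the gene. The design text counts 4 control mice, of which 3 libraries were analysed here, and where libraries were not separate mice the spread is that between libraries alone.

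NRF2 is a transcription factor that KEAP1 holds in the cytosol and marks for degradation. When reactive molecules modify KEAP1, NRF2 accumulates, enters the nucleus and pairs with small MAF proteins on antioxidant response elements, where it raises genes for glutathione synthesis, the thioredoxin system, quinone reduction and haem breakdown. The p62 protein carries ubiquitylated cargo to autophagosomes, can itself bind KEAP1, and in mouse cells its gene is also under NRF2.

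Mitochondrially encoded genes held 64.6% to 88.1% of the counts in knockouts and 70.2% to 87.5% in controls, so the counts behind these nuclear genes were small. Nuclear protein-coding genes held 29203, 44615, 72044 and 188642 counts in knockouts 1 to 4, against 51111, 160267 and 79048 in controls 1 to 3. Knockout 4 stood apart, with 18.2% of its counts in that class, against 2.28% to 7.40% in the other 3 knockouts and 3.27% to 6.23% in the controls. Tefm itself had 0, 1, 0 and 2 counts in knockouts 1 to 4, against 0, 2 and 1 counts in controls 1 to 3, too few to check the genotypes. The counts are of short RNA fragments, not of whole mRNAs. They carry no molecular identifiers that the labels mention, and the intervals given take in counting error and nothing else. Levels below are counts scaled to a common normalised library size (CPM, TMM scaling), a scale on which a count of 0 allows a level of up to 4.58 CPM in knockout 1 and 3.02 CPM in control 1, the shallowest library of each group. In bulk RNA, fewer cells of a type and less RNA per cell cannot be told apart. Crude mitochondria also carry other RNA, and the share of these fragments that lay at mitochondria was not measured.

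Promoter sequence was read for the members that the results turn on, since NRF2 acts through short elements near its genes. RefSeq windows (GRCm38.p6, 250 bases before to 50 after the start site) matched 6 of the 8 members, in 8 windows. Both strands were searched for the core of the antioxidant response element, TGACNNNGC, for its form TGAGNNNGC, for the AP-1 type box TGANTCA, whose letters can overlap both of these, and for TGATGNAA, the core of the element bound by ATF4 and C/EBP factors. The Srxn1, Txnrd1 and Sqstm1 stretches are shown because these genes had the highest ratio between the groups and the most counts, and capitals mark a match on either strand:
Srxn1, chr2:152105274-152105523, plus strand: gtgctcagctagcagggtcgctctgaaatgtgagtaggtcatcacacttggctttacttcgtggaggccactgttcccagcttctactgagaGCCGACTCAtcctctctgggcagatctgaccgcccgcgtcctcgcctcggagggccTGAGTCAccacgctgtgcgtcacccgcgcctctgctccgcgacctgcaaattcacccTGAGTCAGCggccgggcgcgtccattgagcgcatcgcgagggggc
Txnrd1, chr10:82858956-82859205, plus strand: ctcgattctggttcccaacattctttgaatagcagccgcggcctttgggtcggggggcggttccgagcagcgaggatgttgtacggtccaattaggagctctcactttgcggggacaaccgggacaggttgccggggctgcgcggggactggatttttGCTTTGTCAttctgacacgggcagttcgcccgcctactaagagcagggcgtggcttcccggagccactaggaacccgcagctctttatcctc
Sqstm1, chr11:50210821-50211070, minus strand: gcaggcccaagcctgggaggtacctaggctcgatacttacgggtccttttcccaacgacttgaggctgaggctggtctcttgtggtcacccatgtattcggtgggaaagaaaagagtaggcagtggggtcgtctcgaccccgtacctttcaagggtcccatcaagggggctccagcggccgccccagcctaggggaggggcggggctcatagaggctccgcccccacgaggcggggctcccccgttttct

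The Srxn1 stretch held TGAGTCAGC at 45 bases before the start site, TGAGTCGGC on the opposite strand at 158 bases before it, and a TGAGTCA box at 102 bases before it. A further match, TGACCTAGC on the opposite strand, lay after the start site and is not printed. In the Txnrd1 stretch TGACAAAGC lay on the opposite strand, 92 bases before the start, while the other 2 windows of Txnrd1 held no match. Gclm held TGACGGTGC and Nfe2l2 held TGACTCCGC, and the windows of Nqo1 and Sqstm1 held none of the motifs. No window of these genes held TGATGNAA. Of 32851 promoter windows of the same length, 12.4% held TGACNNNGC, 17.6% held TGAGNNNGC, 7.81% held TGANTCA and 3.97% held TGATGNAA. A match is a run of letters and not a bound site, and elements farther from a gene lie outside these windows.

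Sqstm1 was the most abundant of the genes and was high in every knockout library. The gene, listed as ENSMUSG00000015837.15, lies at 50199366 to 50210827 of chromosome 11 on the minus strand of GRCm38. It had 23, 70, 108 and 246 counts in knockouts 1 to 4, against 15, 35 and 25 in controls 1 to 3. On the normalised scale these were 35.1, 70.3, 71.3 and 77.6 CPM in the knockouts, against 15.1, 13.7 and 17.1 CPM in the controls. The groups did not overlap, and knockout 1 was the lowest of its group. The means were 63.6 ± 19.2 CPM in knockouts (SD, n = 4) and 15.3 ± 1.70 CPM in controls (SD, n = 3), and the fit across all genes gave a log2 fold change of 2.06 ± 0.38 (SE). An exon of Sqstm1 overlaps Mrnip on the opposite strand, which had 0 counts in all libraries.

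Txnrd1, the cytosolic thioredoxin reductase that returns oxidised thioredoxin to its active form, had 4, 16, 19 and 42 counts in knockouts 1 to 4, against 1, 4 and 4 counts in controls 1 to 3. Its levels were 6.11, 16.1, 12.6 and 13.2 CPM in the knockouts, against 1.01, 1.57 and 2.74 CPM in the controls. The groups did not overlap, and knockout 1 was again the lowest knockout. The log2 fold change was 2.73 ± 0.43 (SE). Txnrd2, the reductase of the mitochondrial thioredoxin system, had 7, 4, 3 and 2 counts in knockouts 1 to 4, against 3, 1 and 1 counts in controls 1 to 3, too few to enter the fit. Its highest level was in knockout 1, the library where Txnrd1 was lowest among knockouts.

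Srxn1, sulfiredoxin, which restores overoxidised peroxiredoxins, had the highest ratio of the 8 genes and the fewest control counts. It had 7, 8, 11 and 15 counts in knockouts 1 to 4, against 0, 2 and 0 counts in controls 1 to 3. Its levels were 10.7, 8.03, 7.27 and 4.73 CPM in the knockouts, each above the 3.02 CPM that a count of 0 allows in control 1. Over the groups, 41 counts in knockouts and 2 counts in controls gave a ratio of 16.2 for equal library sizes (exact 95% counting interval 4.21 to 138). In this ratio and those of the genes below, knockout 4 and control 2 weigh most, having the largest normalised sizes. The mean levels of Srxn1 were 7.68 ± 2.45 CPM in knockouts (SD, n = 4) and 0.261 ± 0.453 CPM in controls (SD, n = 3). With so few control counts the ratio is known only within that wide interval. On the log2 scale it was 4.02, and 3.31 without control 3, and without control 2 no control count was left.

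Nqo1 and Hmox1, the detoxifying enzymes of the group, were each at 0 in control 1 and present in every knockout. Nqo1, which reduces quinones with NADH or NADPH, had 6, 8, 8 and 17 counts in knockouts 1 to 4, against 0, 3 and 2 counts in controls 1 to 3. The ratio was 6.16 (95% counting interval 2.43 to 20.03), with 6.96 ± 1.95 CPM in knockouts (SD, n = 4) and 0.848 ± 0.741 CPM in controls (SD, n = 3). Hmox1, haem oxygenase 1, which opens the haem ring and frees iron, had 3, 10, 7 and 12 counts in knockouts 1 to 4, against 0, 2 and 2 counts in controls 1 to 3. Its ratio was 6.32 (95% counting interval 2.24 to 24.6), and knockout 2 was high at 10.04 CPM, the other knockouts lying at 3.79 to 4.62 CPM. For neither gene did the groups overlap. Hmox2, the constitutive haem oxygenase, had 2, 4, 10 and 16 counts in knockouts 1 to 4, against 3, 6 and 8 counts in controls 1 to 3, and its groups overlapped in CPM.

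The subunits of glutamate-cysteine ligase, which makes the first bond of glutathione, had few counts and uncertain differences. Gclm, the modifier subunit, had 3, 5, 5 and 14 counts in knockouts 1 to 4, against 0, 8 and 1 counts in controls 1 to 3. The ratio was 2.37 (95% counting interval 1.08 to 5.73), and the groups were apart only narrowly, the lowest knockout being at 3.303 CPM and the highest control at 3.14 CPM. Exons of Gclm overlap Gm17494, a transcript on the opposite strand with 32 counts in all, and without a stated strand setting the reads of the overlap cannot be assigned. Gclc, the catalytic subunit, had 0, 3, 5 and 8 counts in knockouts 1 to 4, against 2, 1 and 1 counts in controls 1 to 3. Its ratio of 3.16 had a 95% counting interval of 1.02 to 13.0, and the groups overlapped, with knockout 1 at 0. Its log2 ratio was 1.66, and 0.83 without control 2. That of Gclm was 1.24, and 3.17 without control 2, the library that held 8 of its 9 control counts.

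Nfe2l2 itself, the source of the NRF2 protein, had 4, 6, 10 and 21 counts in knockouts 1 to 4, against 6, 4 and 5 counts in controls 1 to 3. The knockouts were close together at 6.11, 6.02, 6.61 and 6.62 CPM, against 6.04, 1.57 and 3.42 CPM in the controls, so control 1 lay within the knockout range. The ratio was 2.16 (95% counting interval 1.17 to 4.20). On the log2 scale it was 1.11, and 0.32 without control 2. NRF2 is governed largely at the level of its protein, which these libraries do not measure.

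**Figure D1:**
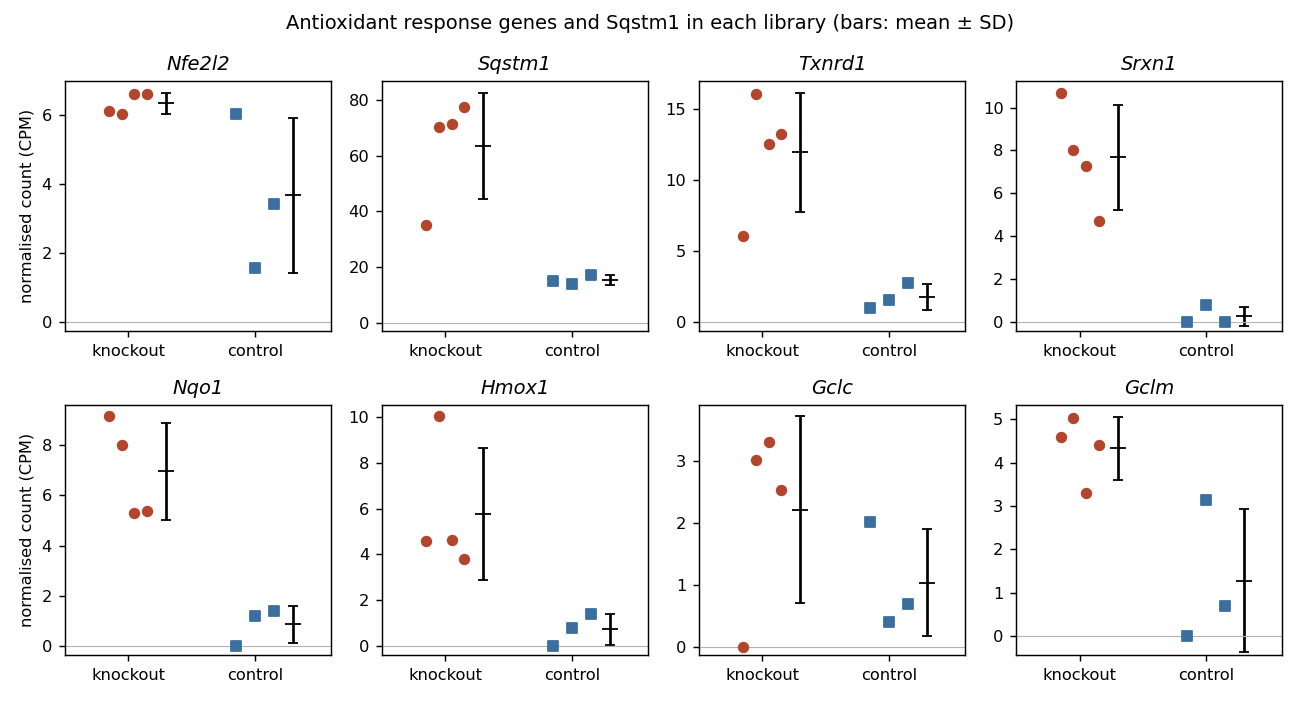
Normalised count (CPM, linear axis) of each of the 8 genes in every library, with 4 knockout libraries as circles, 3 control libraries as squares, and a bar for the mean ± SD of each group. Sqstm1, Txnrd1, Srxn1, Nqo1 and Hmox1 lie apart between the groups, Gclm narrowly so, and Nfe2l2 and Gclc overlap.

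**Figure D2:**
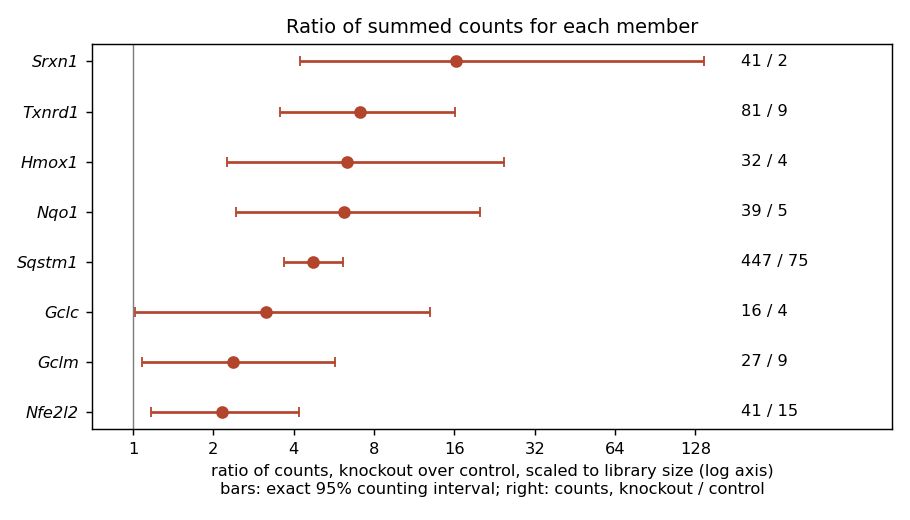
Ratio of summed counts of knockouts over controls, scaled to library size (log axis), with exact 95% counting intervals and the summed counts printed at the right. The ratios run from 2.16 for Nfe2l2 to 16.2 for Srxn1, and the narrowest interval is that of Sqstm1, with 447 counts in knockouts and 75 in controls.

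All 8 count ratios lay above 1, with a median log2 ratio of 2.43, against a median log2 fold change of 0.02 over the 1505 genes tested, of which 50.7% were positive. The groups did not overlap for 6 of the 8 genes, knockouts being higher each time. The same held for 14.0% of all genes tested and for 9.55% of the 4847 nuclear protein-coding genes with at least as many counts as Gclc, the least counted of the 8. Only Sqstm1 and Txnrd1 passed the low-count filter of the fit, and both were called at an adjusted p under 0.05, where 6.98% of the 1505 genes were called (5.25% with knockouts higher). Those calls rest on the contrast with which the genes were proposed, so nothing is read from them. The Sqstm1 call ended without knockout 2 or without any of the 3 controls, where its log2 fold change was between 1.80 and 2.07. The Txnrd1 call ended without any of the 3 controls, at 2.37 to 2.92, and without knockout 2, 3 or 4 the gene fell under the filter. With no low-count filter 5 of the 8 genes were called, Srxn1, Nqo1 and Hmox1 joining, where 1.21% of 15828 features were called (0.79% with knockouts higher). With a minimum count of 5 it was 4 of the 7 that could be tested, where 3.35% of all were called (2.44% with knockouts higher). DESeq2 called 4 of 7, where it called 4.42% of 4161 (2.55% with knockouts higher). In the authors' deposited table, where 4.8% of 4105 features with an adjusted p lie under 0.05 (2.73% with a positive fold change), the genes under it were Sqstm1, Txnrd1, Srxn1 and Nqo1.

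Scaling between libraries changed the size of the differences and left their direction. The median over all genes lay at 0.93 log2 units with libraries scaled on total counts, at 0.65 on microRNA genes and at 1.25 on mitochondrially encoded genes. Relative to the median of all genes, Sqstm1 lay between 1.73 and 2.38 log2 units higher over 19 settings, and Txnrd1 between 2.32 and 2.95 over the 16 settings in which it could be fitted. Both calls were lost with libraries scaled on total counts or on microRNA genes, and that of Sqstm1 also on mitochondrially encoded genes.

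**Figure D3:**
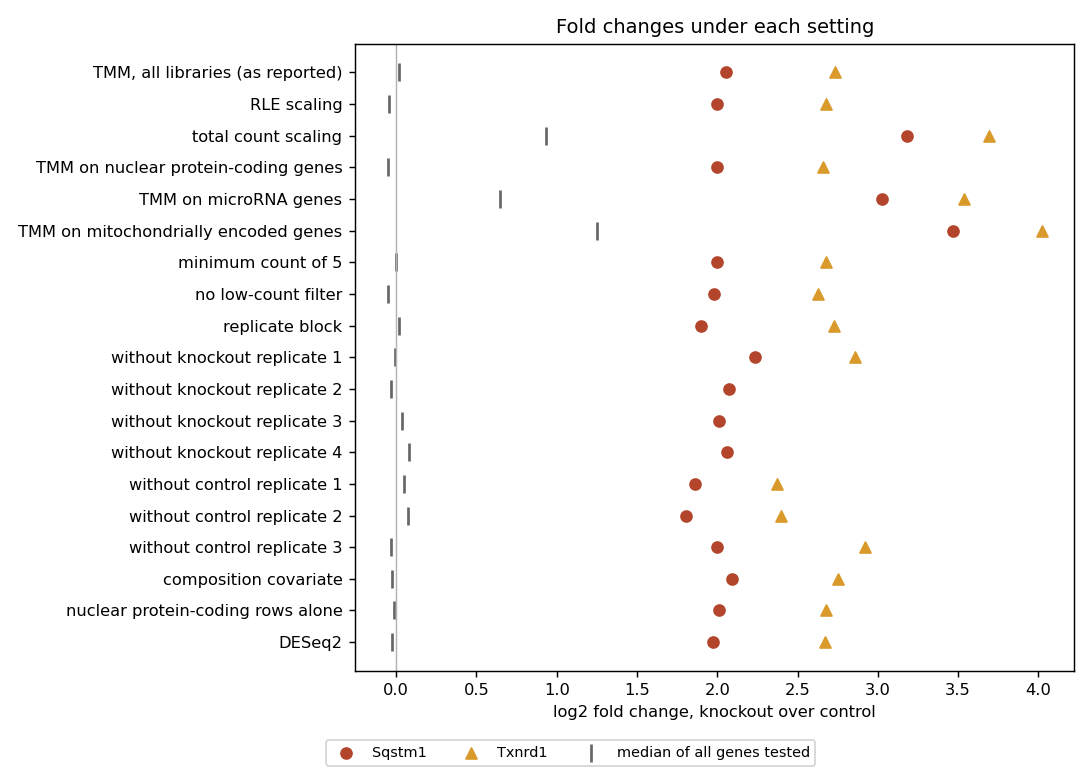
Log2 fold change, knockout over control, of Sqstm1 (circles) and Txnrd1 (triangles) under each setting, with the median of all genes tested as a vertical tick. Both genes lie to the right of the median in every setting where they were fitted, and the 3 scalings that shift the median shift the genes along with it.

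Counts were also set against other counts of the same library, where scaling between libraries cancels. These 3 ratios were chosen after the values had been seen. The 8 genes together held 0.171%, 0.282%, 0.240% and 0.199% of nuclear protein-coding counts in knockouts 1 to 4, against 0.0470%, 0.0368% and 0.0506% in controls 1 to 3. Sqstm1 counts were 0.338, 0.814, 1.09 and 0.950 times the summed counts of 13 other autophagy genes in the knockouts, against 0.273, 0.216 and 0.305 times in the controls. On both measures the groups did not overlap, though knockout 1 lay near the controls on the second. The 6 enzyme genes together had 5.75, 8.33, 5.50 and 5.14 counts for each Nfe2l2 count in the knockouts, against 0.50, 5.0 and 2.0 in the controls, where Nfe2l2 itself had 4 to 6 counts, so control 2 was close to knockout 4.

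**Figure D4:**
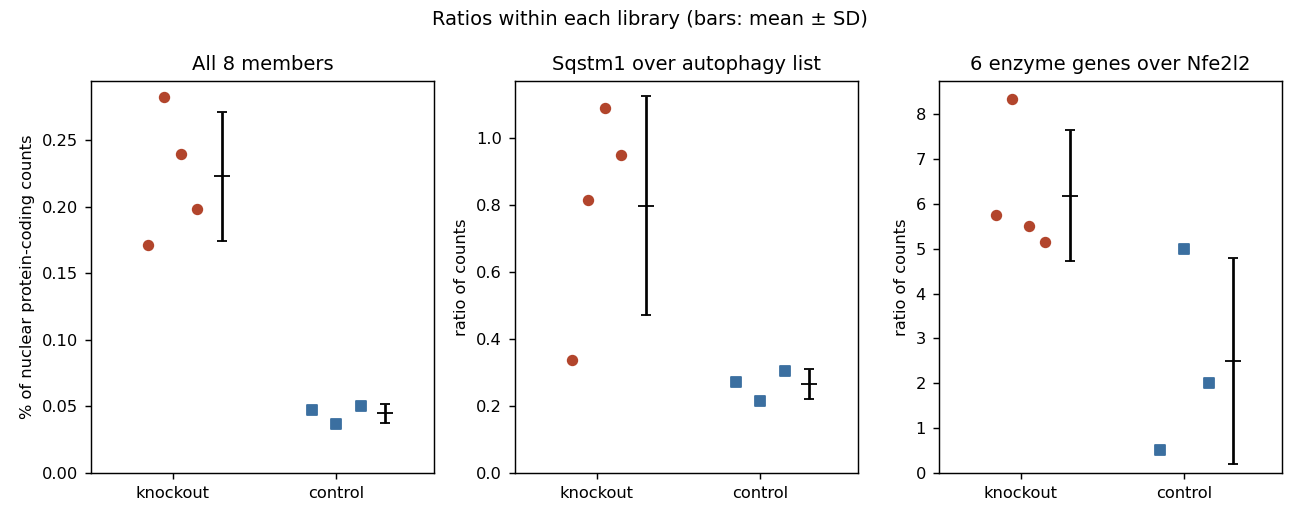
Ratios formed within each library, with knockouts as circles on the left, controls as squares on the right and bars for the mean ± SD. The share of the 8 genes among nuclear protein-coding counts averaged 0.223% in knockouts and 0.0448% in controls, the ratio of Sqstm1 to the autophagy list averaged 0.798 in knockouts and 0.265 in controls, and the ratio of the enzyme genes to Nfe2l2 averaged 6.18 in knockouts and 2.50 in controls.

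Per kilobase of annotated exon, Sqstm1 had the highest level in both groups, at 18.9 ± 5.73 CPM per kb in knockouts (SD, n = 4) and 4.56 ± 0.506 CPM per kb in controls (SD, n = 3). In knockouts the order below it was Nqo1, Hmox1, Srxn1, Txnrd1, Nfe2l2, Gclm and Gclc. Exon length was taken over all annotated transcripts of a gene together, and the counts are of short fragments. The order therefore need not be that of whole mRNA levels. Knockout ranges of neighbours in that order overlapped, except between Sqstm1 and Nqo1 and between Nfe2l2 and Gclm. Nqo1 stood at 4.48 ± 1.25 and Gclc at 0.587 ± 0.4003 CPM per kb in knockouts (SD, n = 4). In controls Nfe2l2 came second after Sqstm1, at 0.968 ± 0.592 CPM per kb (SD, n = 3), and Srxn1 came last.

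Other genes of the pathway and of autophagy, none of them among the 8, were listed, and those with enough counts were tested. Of 72 listed genes of NRF2 regulation, thioredoxin, glutathione, NADPH, haem and iron, detoxification, peroxide defence and autophagy, 70 had a count and 16 had enough counts to test. By edgeR, 0 of the 16 rose and 0 fell, where 6.98% of all genes tested were called, while 4 had an unadjusted p under 0.05, all positive, a share of the 16 near the 23.5% of all genes. DESeq2 called 1 of the 39 to which it gave an adjusted p, Optn, where it called 4.42% of all features. The genes with enough counts were 2 of 8 NRF2 regulators, 3 of 12 thioredoxin and peroxiredoxin genes, 1 of 15 glutathione genes, 1 of 6 NADPH-producing enzymes, 1 of 7 haem and iron genes, 0 of 7 detoxification genes, 3 of 4 superoxide and peroxide enzymes and 5 of 13 autophagy genes. Slc7a11, Gsr, G6pdx, Pgd, Prdx1 and Ftl1 were among the listed genes with too few counts. The edgeR result for the 16 therefore does not cover them. The 16 had a median log2 fold change of 0.14, with 12 positive. In CPM, 5 of the 16 (Cat, Txnip, Me1, Optn and Tax1bp1) had all knockouts above all controls, and 0 had the reverse. Tax1bp1 was apart only narrowly, its lowest knockout being at 10.09 CPM and its highest control at 10.06 CPM. All knockouts were higher for 14.0% of all genes tested, and the difference between these shares was not tested.

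The most abundant tested genes of the iron, superoxide, peroxiredoxin and glutathione lists did not pass the test. Fth1, the heavy chain of the iron store ferritin, was at 53.5 ± 14.7 CPM in knockouts (SD, n = 4) and 48.4 ± 15.5 CPM in controls (SD, n = 3), and its log2 difference was 0.14 ± 0.39 (SE, by edgeR with an adjusted p of 0.881). Sod2, the superoxide dismutase of the mitochondrial matrix, had -0.42 ± 0.31 (edgeR adjusted p = 0.463) and Prdx3, the peroxiredoxin of that compartment, had -0.46 ± 0.47 (edgeR adjusted p = 0.618). Gpx3, the secreted glutathione peroxidase, had -0.40 ± 0.34 (edgeR adjusted p = 0.528). The values of Sod2, Prdx3 and Gpx3 were positive when libraries were scaled on total counts, on microRNA genes or on mitochondrially encoded genes. That of Fth1 was negative without knockout 1 and without control 1. With SEs of this size, differences of moderate size could not be told from 0.

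Cat, Txnip and Me1 had positive values that did not pass. Cat, the peroxisomal enzyme that splits hydrogen peroxide, was at 24.4, 29.1, 26.4 and 21.8 CPM in knockouts 1 to 4, against 17.1, 15.3 and 9.58 CPM in controls 1 to 3. Its groups did not overlap, and the log2 difference was 0.86 ± 0.28 (SE, by edgeR with an adjusted p of 0.104). Txnip, the inhibitor of thioredoxin, had 0.86 ± 0.32 (edgeR adjusted p = 0.153), and Me1, the cytosolic malic enzyme that supplies NADPH, had 1.89 ± 0.70 (edgeR adjusted p = 0.151), and 1.20 without control 3. Of the NRF2 regulators, Nfe2l1, a related factor, had 0.15 ± 0.34 (edgeR adjusted p = 0.861) and Cul3, the ligase scaffold that works with KEAP1, had 0.10 ± 0.22 (edgeR adjusted p = 0.965). The sign of both turned without control 1 or control 3, for Nfe2l1 also with the replicate block, and for Cul3 also by DESeq2 and with nuclear protein-coding rows alone.

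Among the other autophagy genes, Nbr1, a receptor that works beside p62, had a log2 fold change of 0.53 ± 0.26 and Tax1bp1, another receptor, had 0.50 ± 0.32 (edgeR adjusted p = 0.374 each). Optn, optineurin, a receptor for damaged mitochondria that was picked out after its values were seen, was at 6.11, 10.04, 7.93 and 13.6 CPM in knockouts 1 to 4, against 3.02, 3.53 and 0.684 CPM in controls 1 to 3. Its groups did not overlap, and the log2 difference was 1.95 ± 0.50 (SE, by edgeR with an adjusted p of 0.0590). Optn passed under DESeq2, under RLE scaling and with no low-count filter. It was not called with a minimum count of 5, with the replicate block, without any single library or under the other scalings. In the authors' deposited DESeq2 comparison its adjusted p was 0.0548.

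**Figure D5:**
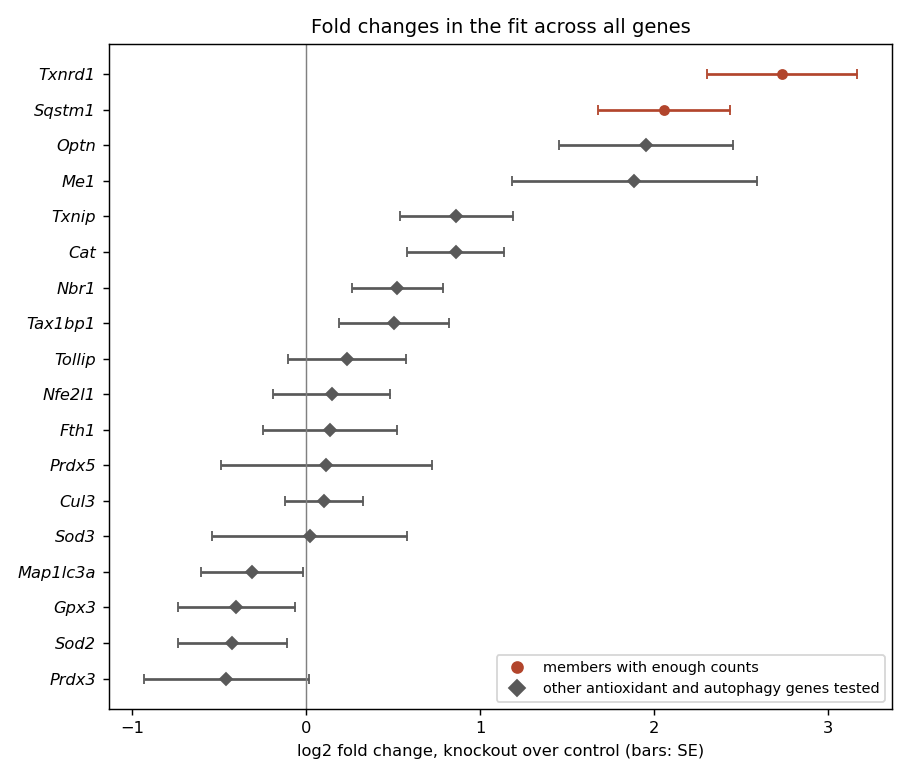
Log2 fold change, knockout over control, with its SE for Txnrd1 and Sqstm1 (circles) and the 16 other listed genes with enough counts (diamonds). Txnrd1 at 2.73 and Sqstm1 at 2.06 lie highest, Optn and Me1 follow at 1.95 and 1.89, and the lowest is Prdx3 at -0.46.

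The 56 listed genes with too few counts had a median of 20 counts over all libraries. Of these, 3 had all knockouts above all controls in CPM and 1 had the reverse, where 3.8% of all features with a count had knockouts higher and 3.98% had controls higher. Among nuclear protein-coding genes with at least as many counts as Gclc those shares were 9.55% and 6.73%, and 3 of 56 lies between the bases for knockouts higher. Mafk, a small MAF partner of NRF2, chosen for mention after its values were seen, had 2, 6, 11 and 19 counts in knockouts 1 to 4, against 0, 5 and 1 counts in controls 1 to 3. Slc7a11, the cystine transporter that feeds glutathione synthesis and that ATF4 also raises, had 0, 4, 4 and 18 counts in knockouts 1 to 4 and 0 in every control. Knockout 1 was thus at 0 along with the controls, though a count of 0 in that library allows up to 4.58 CPM. Keap1 had 5, 0, 4 and 7 counts in knockouts, against 2, 4 and 4 counts in controls. The enzymes Gsr, Prdx1 and Txn1 had at most 10 counts in any library and were not tested. These genes, Keap1 and Slc7a11 were chosen for mention after their values were seen, as were Txnrd2 and Hmox2 above.

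Profiles like those of the most abundant members were sought over the 7 libraries as the root mean square difference of centred log2(CPM + 1) values among 1234 nuclear protein-coding genes tested. The nearest to Sqstm1 were Flnc, Gbe1, Msn, Pdk4 and Txnrd1, at 0.227 to 0.268, where the median gene was at 1.102. For Txnrd1 the nearest were Nars, Sqstm1, Iars, Rtn4 and Gbe1, at 0.240 to 0.289, where the median was 1.25. Flnc, filamin C of muscle, averaged 168 CPM in knockouts and 46.3 CPM in controls, and Nars, the cytosolic asparaginyl-tRNA synthetase, averaged 20.6 CPM in knockouts and 3.25 CPM in controls. These profiles include the difference between the groups, with which both members were proposed. Nearness is therefore a description, and shared regulation was not tested.

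Markers of other cells were read beside these values, since macrophages also express Hmox1 and Sqstm1. All 7 macrophage and white blood cell markers had counts, and their summed level was 17.8 to 31.1 CPM in knockouts, against 40.3 to 62.9 CPM in controls. Of the 3 that could be tested Cd74 was the only one called, and in log2 units it fell by 2.12 (adjusted p = 0.0342 by edgeR). Without it the other 6 summed to 16.5 to 29.1 CPM in knockouts, against 28.2 to 47.9 CPM in controls, so the groups overlapped. Ptprc, the common leucocyte antigen CD45, went the other way, with 1, 4, 4 and 9 counts in knockouts 1 to 4, against 0, 2 and 2 counts in controls 1 to 3, and its CPM did not overlap between the groups. The 6 cardiomyocyte markers, all of them well counted, summed to 1354 to 1935 CPM in knockouts, against 2721 to 3696 CPM in controls. By edgeR 0 of these 6 were called, where 6.98% of all genes tested were. All 6 log2 fold changes were negative, and 3 had an unadjusted p under 0.05 by edgeR. For each of the 6, all knockouts lay below all controls in CPM. The same held for 6.73% of nuclear protein-coding genes with at least as many counts as Gclc. In the authors' deposited DESeq2 comparison Myh6, Actc1, Tnni3, Pln and Mb had an adjusted p under 0.05, and Tnnt2 had 0.0872. There 4.8% of 4105 features lie under 0.05. Endothelial markers (4 of 4 with counts) summed to 28.1 to 74.7 CPM in knockouts, against 70.5 to 136 CPM in controls, and fibroblast markers (5 of 5) to 194 to 584 CPM in knockouts, against 235 to 413 CPM in controls. Erythroid markers (5 of 5) summed to 5.02 to 18.3 CPM in knockouts, against 11.4 to 19.2 CPM in controls. Of the 3 liver markers Apoa1 had 0 counts, and the list summed to at most 3.05 CPM in any library. The part of these shifts in the differences above was not tested.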

How the data were processed

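Per the labels' protocols, RNA of crude mitochondria from hearts went into small RNA libraries (Illumina) that were read from a single end by MiSeq. Raw counts per gene were deposited by the authors as whole numbers, with totals of 973835 to 2570739 per library. The submitters' processing notes name featureCounts, Bowtie2, the mm10 build and DESeq2 1.14.1, among other tools. No source used here gives their annotation, strand setting or handling of reads with several matches. Dividing raw counts by a factor per library gave the authors' normalised signal, which was used for checks alone. The authors' deposited table gives a mean signal, a log2 fold change with its standard error, a Wald score, a p-value and an adjusted p-value per the file headers. It is used here for gene symbols and to say which of the 8 genes, and what share of all features, passed. It also gives the adjusted p of Optn and of the cardiomyocyte markers.

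Genes were tested on raw counts by the quasi-likelihood test of edgeR 4.0.16 (R 4.3.3, TMM scaling, filtered at a minimum count of 10, 2 groups, no covariate, two-sided), with Benjamini-Hochberg adjustment over the 1505 genes tested and calls under 0.05. The SE is the fold change over the root of its F statistic. Ratios of summed counts are scaled to normalised library sizes, with exact 95% counting intervals (scipy 1.17.1). The procedure was tested on simulated data, with changes planted only in genes with more counts than all of the 8 but Sqstm1. That test therefore does not cover the other members. Symbols came from the deposited table, and positions and exon lengths from GENCODE M21, where 7 of 8 identifiers had the same version and Txnrd1 a later one. Named were the 8 members, the 2 most abundant tested genes of each list, any called gene and the 5 nearest profiles of Sqstm1 and of Txnrd1. Other genes named were chosen after their values were seen. Members and lists were chosen with earlier results of these data known. Alternatives were other scalings and filters, DESeq2 1.42.0 with its default settings, a replicate block and each library left out. Added afterwards were a covariate for library composition and a fit to nuclear protein-coding genes alone.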

Additional observations from a re-analysis of the deposited data

Results flagged for a closer look

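Hmox1 in knockout libraries was picked out because knockout 2, at 10.04 CPM, lay far from the other 3 knockouts at 3.79 to 4.62 CPM. The gap was 0.866 of the whole range of the group, above the 95% critical value of Dixon's test for 4 libraries. It rests on 10 counts in that library. Of 22 such groups examined 1 met this mark, and chance alone gives about 1 in 20.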

How the results depend on the processing

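The 105 genes called over all genes became 8 under scaling to total counts, 0 with libraries scaled on microRNA genes (by edgeR, 24 had an unadjusted p under 0.05), 53 under scaling to mitochondrially encoded genes, 192 with no low-count filter and 184 by DESeq2. With the composition covariate 371 were called and with nuclear protein-coding rows alone 262, both settings chosen after the data were examined. Leaving out single libraries gave 0 to 75, with 0 without control 2 or control 3 (395 and 407 at an unadjusted p under 0.05 by edgeR). The 0 of 16 other pathway genes became 1 of 16 under RLE scaling, 1 of 39 by DESeq2 (4.42% of all features called) and 1 of 15 with nuclear protein-coding rows alone (Optn each time), 2 of 70 with no low-count filter (Optn and Slc7a11; 1.21% of all features called) and 4 of 16 with the composition covariate (Optn, Cat, Me1 and Txnip), and stayed at 0 without any single library. The median log2 count ratio of the 8 genes was 3.21 under scaling to total counts, 3.60 under scaling to mitochondrially encoded genes and 2.09 to 2.54 with single libraries left out. All 8 single ratios were positive in every setting where they could be formed; without control 2, which holds both of its control counts, Srxn1 had none. With single libraries left out, log2 ratios were 0.69 to 3.17 for Gclm, 0.32 to 1.29 for Nfe2l2, 0.83 to 2.10 for Gclc, 3.31 to 4.48 for Srxn1, 2.07 to 2.91 for Nqo1 and 2.10 to 3.10 for Hmox1. With the replicate number as a block 0 genes were called (338 at an unadjusted p under 0.05 by edgeR), 0 of them pathway genes. Same-numbered libraries correlated at 0.53, -0.80 and 0.32 in their deviations. Deviations from the means of so few libraries cannot decide whether the numbers pair the libraries. The causes were not tested. Depth limits these genes: Gclc had 4 control counts and Srxn1 had 2.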
